A study of Rattus norvegicus with 2 samples.

Results

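Transporters that carry amino acids across the plasma membrane were followed in regenerating rat liver, as a set of 10 of the 14217 genes named on the arrays. The members were taken by gene symbol, namely Slc1a4, Slc1a5, Slc3a2, Slc7a1, Slc7a2, Slc7a5, Slc7a11, Slc38a2, Slc38a3 and Slc38a4. The platform's annotation gave them 12 of the 31042 probe sets that are not controls, 3 for Slc7a1 and 1 for each of the other 9 members. The groups were liver left in place at 24 h after partial hepatectomy (PH, surgical removal of part of the liver), labelled 1/3PH and 2/3PH for the share removed. Each group was 1 pool of RNA from 3 rats read on 1 Affymetrix array, so 6 rats gave 2 measurements. The design text describes robust DNA replication after 2/3PH and a minimal response after 1/3PH. The labels give no strain, sex or age, and no array of unoperated liver was analysed here. A difference therefore cannot be assigned to one operation or the other.

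Amino acid transporters of the solute carrier (Slc) families supply the amino acids for protein synthesis, nucleotide synthesis and the urea cycle. Slc1a4 and Slc1a5 exchange small neutral amino acids, Slc1a5 being a main route for glutamine. Slc3a2 (CD98 or 4F2 heavy chain) carries no substrate itself and brings Slc7 light chains to the membrane, among them Slc7a5, an exchanger of large neutral amino acids such as leucine, and Slc7a11, the cystine-glutamate exchanger. Slc7a1 and Slc7a2 carry arginine, lysine and ornithine, Slc7a2 being the form known from hepatocytes. Slc38a2 and Slc38a4 bring in neutral amino acids with sodium (system A), and Slc38a3 carries glutamine, histidine and asparagine (system N). Several of these genes are known targets of ATF4, the transcription factor made when amino acids run short, which binds an amino acid response element.

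The sequences before the annotated starts of the transporters that were higher after 2/3PH, and of Slc7a5, are shown because the first group lay on the same side and Slc7a5, a partner of Slc3a2, on the other. RefSeq's table for assembly GRCr8 held 8 promoter windows for 7 of the 10 members, and Slc1a5, Slc7a2 and Slc38a3 were not matched. Each line is 250 bases, read 5′ to 3′ on the gene's strand and ending at the base before the start. Capitals mark the amino acid response element core TGATGNAA, the E-box CACGTG known for binding Myc, and the antioxidant response element core TGACNNNGC, each on either strand. The windows are chr14:98761563-98761812 (minus strand) for Slc1a4, chr12:11664238-11664487 (plus strand) for Slc7a1, and chr19:66872413-66872662 (minus strand) for Slc7a5. For Slc3a2 they are chr1:215048065-215048314 (start A) and chr1:215039671-215039920 (start B), both on the minus strand.
Slc1a4: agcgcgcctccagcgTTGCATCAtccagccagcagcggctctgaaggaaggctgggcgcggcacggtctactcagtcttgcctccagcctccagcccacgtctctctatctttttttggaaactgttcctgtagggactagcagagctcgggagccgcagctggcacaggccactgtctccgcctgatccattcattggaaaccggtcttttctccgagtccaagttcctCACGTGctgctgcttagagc
Slc7a1: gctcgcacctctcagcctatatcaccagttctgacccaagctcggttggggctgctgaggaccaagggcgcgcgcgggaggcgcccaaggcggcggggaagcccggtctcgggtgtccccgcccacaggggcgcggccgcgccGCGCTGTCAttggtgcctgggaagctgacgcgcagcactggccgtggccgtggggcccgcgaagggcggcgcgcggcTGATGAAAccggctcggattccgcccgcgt
Slc3a2 start A: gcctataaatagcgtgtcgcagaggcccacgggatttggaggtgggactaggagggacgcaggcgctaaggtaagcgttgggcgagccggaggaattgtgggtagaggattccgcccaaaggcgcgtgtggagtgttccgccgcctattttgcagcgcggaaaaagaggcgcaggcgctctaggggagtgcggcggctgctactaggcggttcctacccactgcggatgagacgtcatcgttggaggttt
Slc3a2 start B: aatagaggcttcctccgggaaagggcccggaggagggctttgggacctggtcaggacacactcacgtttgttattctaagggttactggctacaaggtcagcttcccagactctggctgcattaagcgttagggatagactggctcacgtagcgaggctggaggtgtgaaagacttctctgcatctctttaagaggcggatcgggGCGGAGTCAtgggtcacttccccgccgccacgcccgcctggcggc
Slc7a5: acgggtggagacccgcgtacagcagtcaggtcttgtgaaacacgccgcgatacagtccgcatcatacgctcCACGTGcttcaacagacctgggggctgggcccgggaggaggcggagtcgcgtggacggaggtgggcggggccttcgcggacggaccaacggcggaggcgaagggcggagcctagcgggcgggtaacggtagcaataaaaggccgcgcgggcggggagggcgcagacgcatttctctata

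The search covered the whole 300 bases of each window, which run 50 bases past the start. The amino acid response element core was found in Slc1a4, as TTGCATCA from 235 to 228 bases before the start, and in Slc7a1, as TGATGAAA from 30 to 23 bases before it. It was in 3.98% of all 33469 windows of the table and in 2 of the 8 windows of the members. The E-box was found in Slc1a4, from 20 to 15 bases before the start, and in Slc7a5, from 179 to 174, against 6.42% of all windows. The antioxidant response element core lay in Slc7a1, Slc38a2 and Slc3a2 at start B, against 12.1% of all windows. The CCAAT box was in Slc1a4, Slc7a1 and Slc38a4, against 37.5% of all windows, and in Slc7a1 it shares 1 base with the antioxidant core. The CRE TGACGTCA was in no member's window and in 1.83% of all windows. A match describes letters in these windows and is not evidence of binding, and elements farther from the start were not searched.

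The values are MAS 5.0 signals, which combine the probes of a probe set into 1 number per array, and are deposited as log2. Higher and lower always describe 2/3PH against 1/3PH, and the log2 ratio is 2/3PH minus 1/3PH. A floor at the median of all probe sets' mean log2 signal, 6.48 or a signal of 89.2, stood in for detection calls, and 9514 genes reached it. With 1 array per group no test was possible, and no p-value is given. The error that the arrays themselves hold is the disagreement between probe sets of the same gene, an SD of 0.31 in the log2 ratio of a probe set, from 2067 genes. It leaves out all variation between rats and between arrays. It is also 1 value pooled over all signals above the floor, and its size for dim probe sets was not estimated. Slc7a1, Slc1a5 and Slc7a5 are dim, at the 9.7, 14.8 and 15.3 percentiles of signal among genes above the floor. For such genes, multiples of this SD are a rough guide only. In liver tissue as a whole, fewer cells of a type and less RNA per cell cannot be told apart.

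The transporters lay on both sides of 0. Slc1a4 and Slc3a2 were at least 2-fold higher after 2/3PH, and Slc7a1 was 1.93-fold higher. Slc1a5 and Slc38a2 lay within the probe set SD of 0, and the hepatocyte carriers Slc38a3 and Slc38a4 were lower, as was Slc7a5. Of the 10 members, 8 reached the floor, and Slc7a2 and Slc7a11 did not. At the 2-fold limit 2 of those 8 were higher and 0 lower, against 6.12% higher and 3.68% lower among all genes that reached the floor. At 1.5-fold 3 were higher and 2 lower, against 15.8% and 12.0%. With 8 genes, 2 calls are too few to set a share against that background. The median log2 ratio of the 8 was -0.00082, beside 0.03 for all genes above the floor, with 4 ratios above 0 and 4 below.

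**Figure D1:**
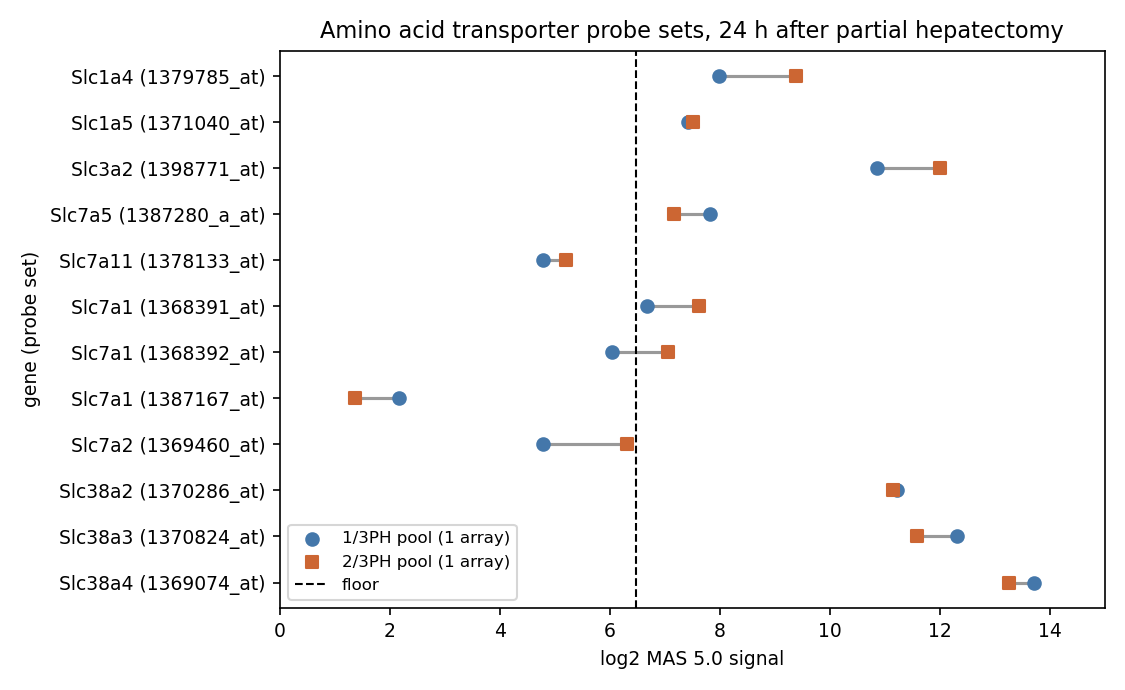
The log2 MAS 5.0 signal (horizontal axis) of all 12 probe sets of the 10 transporters in the 1/3PH pool (circles) and the 2/3PH pool (squares), 1 pool of 3 rats each, with the floor of 6.48 as a dashed line. Slc1a4, Slc3a2 and the brighter pair of Slc7a1 probe sets lie to the right on the 2/3PH array, and Slc7a5, Slc38a3 and Slc38a4 lie to the left.

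The exchangers of small neutral amino acids differed from each other. Slc1a4 (probe set 1379785_at), also called ASCT1, gave a signal of 252.0 in the 1/3PH pool and 669 in the 2/3PH pool. This was a log2 ratio of 1.41 ± 0.31 (probe set SD), or 2.65-fold higher, and 273 of the 9514 genes above the floor had a larger ratio. Slc1a5 (1371040_at), also called ASCT2, had signals of 171 and 182, a log2 ratio of 0.09 that was smaller than the probe set SD. The log2 ratio of Slc1a4 exceeded that of Slc1a5 by 1.32, or 3.00 times the 0.44 that probe set error gives for a difference between 2 ratios. That difference does not depend on how the arrays were scaled by a constant, and it lay between 1.15 and 1.32 over the 10 settings tried.

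The heavy chain Slc3a2 and its light chain partner Slc7a5 lay on opposite sides of 0. The signal of Slc3a2 (1398771_at) was 1850 in the 1/3PH pool against 4097 in the 2/3PH pool, 2.21-fold higher at a log2 ratio of 1.15, and 432 genes above the floor had a larger ratio. Slc7a5 (1387280_a_at) had signals of 226 and 143, 1.58-fold lower at a log2 ratio of -0.66. The log2 ratios of this pair differed by 1.80, or 4.10 times the probe set error of a difference, and by 1.60 to 1.87 over the 9 settings in which both could be measured. Slc7a5 has a single probe set here, and its suffix _a_at marks a set that can match several transcripts of a gene.

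Among the 6 light chains known to pair with Slc3a2, members Slc7a5 and Slc7a11 included, 4 reached the floor. At 2-fold 1 of these was higher and 0 lower, against 6.12% and 3.68% of all genes that reached the floor. With 4 genes, 1 call is too few to set a share against that background. The higher one was Slc7a6 (y+LAT2, an exchanger of cationic for neutral amino acids), with signals of 143 (1/3PH) and 314 (2/3PH) at a log2 ratio of 1.13. The ratio of Slc3a2 exceeded that of Slc7a6 by 0.02, and by up to 0.26 over the 10 settings, of which the same alternatives alone could move it. Both gaps are smaller than the probe set error of 0.44 for a difference. The ratio of Slc7a6 fell short of 2-fold, at 0.86, with 64 units added to each signal. Its close relative Slc7a7 (y+LAT1) had signals of 297 and 186, 1.60-fold lower at a log2 ratio of -0.68. Slc7a8 (LAT2) had signals of 103 and 101, a log2 ratio of -0.02 that was positive with either spike-in scaling. Slc7a11 (1378133_at) had signals of 27.6 and 36.7 and Slc7a10, a carrier of small neutral amino acids, 24.2 and 22.3, all under the floor, so no fold is given for either.

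Of the arginine and lysine carriers, Slc7a1 was higher by both probe sets that reached the floor. By 1368391_at Slc7a1 (CAT-1) had signals of 102 (1/3PH) and 196 (2/3PH), and the log2 ratio of 0.94 falls just short of the 2-fold limit. By 1368392_at the signals were 65.7 and 133, a log2 ratio of 1.01, and since the first value is under the floor the difference is at least 1.49-fold. These ratios differed by 0.07, less than the probe set error of 0.44. The third probe set of Slc7a1, 1387167_at, had signals of 4.48 and 2.58, both far under the floor, and says nothing on direction. Counted by probe sets, 9 of the 12 reached the floor and by the log2 ratio 3 of these were higher at 2-fold and 0 lower, against 5.70% and 3.76% of all probe sets above the floor. The 3 include 1368392_at, which its floor bound of 1.49-fold does not show to be 2-fold.

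Slc7a2 (1369460_at), the carrier of cationic amino acids known from hepatocytes, had signals of 27.4 after 1/3PH and 79.7 after 2/3PH. Both are under the floor, so no fold is given, although the 2/3PH value lies close to it. This single probe set therefore gives no usable comparison of Slc7a1 with Slc7a2.

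The 3 Slc38 members had ratios below 0 on the deposited scale. Slc38a2 (1370286_at), also called SNAT2, had signals of 2401 (1/3PH) and 2260 (2/3PH), and its log2 ratio of -0.09 turned positive under both spike-in scalings. Slc38a3 (1370824_at), the system N carrier, had signals of 5070 and 3082, 1.64-fold lower at a log2 ratio of -0.72. It had the lowest ratio of the 8 members above the floor, and 8725 of the 9514 genes had a larger one. Slc38a4 (1369074_at), a system A carrier known from liver, had signals of 13393 and 9795, 1.37-fold lower at a log2 ratio of -0.45. The differences within the family were small, since Slc38a2 exceeded Slc38a3 by 0.63 and Slc38a4 by 0.36, or 1.43 and 0.83 times the probe set error of a difference. The order of Slc38a3 and Slc38a4 is not resolved, at a gap of 0.27. None of the 3 reached 2-fold.

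**Figure D2:**
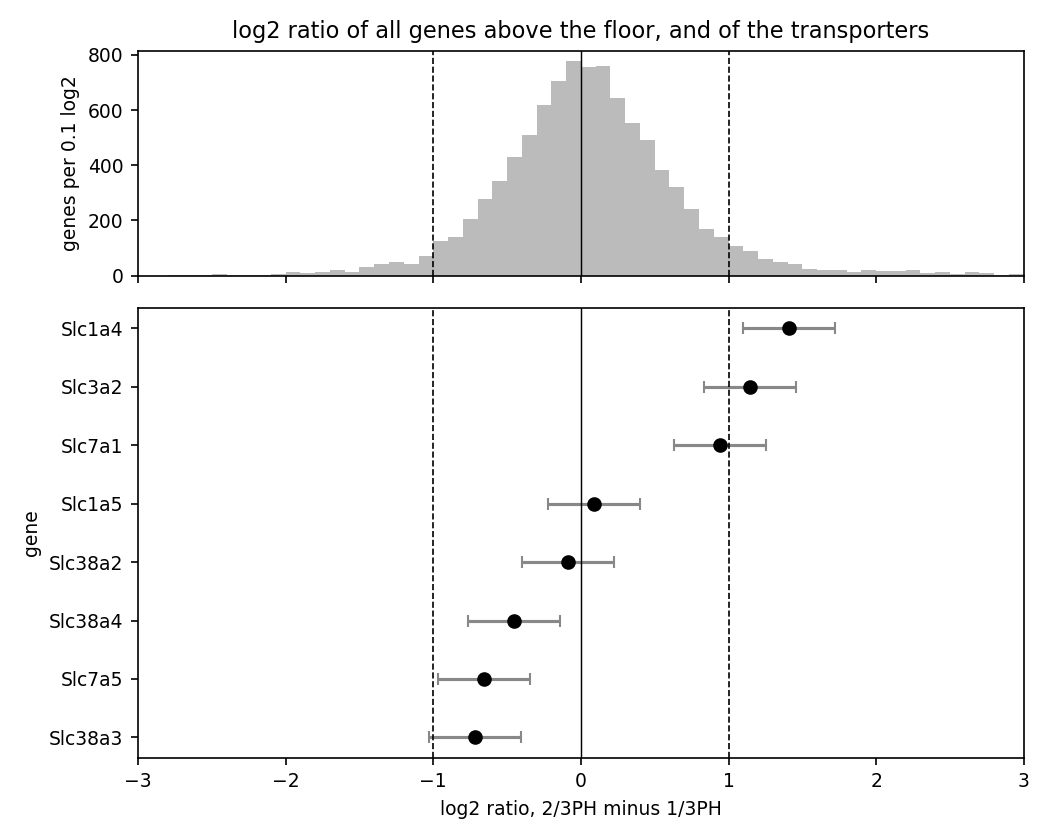
The log2 ratio, 2/3PH minus 1/3PH, of 9514 genes above the floor as a histogram in bins of 0.1 (top, number of genes) and of the 8 transporters above the floor (bottom, points, with bars of 1 probe set SD, 0.31). Dashed lines mark 2-fold, and 25 genes lie beyond the axis, which ends at 3 in both directions. Slc1a4 and Slc3a2 lie past the upper 2-fold line, Slc7a1 just short of it, and none lies past the lower line.

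How the arrays were scaled set the size of these differences but few of their directions. The spike-in controls were dimmer on the 2/3PH array, by a mean log2 ratio of -0.26 over 18 hybridisation control probe sets and -0.43 over 24 poly-A control probe sets. Scaling to them moved the median of all genes above the floor from 0.03 to 0.30 and 0.47, and the counts of genes past 2-fold from 582 higher and 350 lower to 1029 and 196 and to 1561 and 126. Slc1a4 lay between 1.21 and 1.84 over the 10 settings and Slc3a2 between 1.10 and 1.58, past 2-fold in all 10. The 10 include the values as reported, and either spike-in scaling raises every ratio. Apart from Slc7a1 each member has 1 probe set, so the 3 probe set rules could not change its ratio. Slc7a1 lay between 0.39, with its 3 probe sets averaged to a mean under the floor, and 1.38, and passed 2-fold in 3 of 10. Slc38a3 lay between -0.77 and -0.29, Slc7a5 between -0.72 and -0.23 over 9, and Slc38a4 between -0.50 and -0.02, all lower throughout. The last value, -0.02, was the one under poly-A scaling, where the median of all genes was 0.47.

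**Figure D3:**
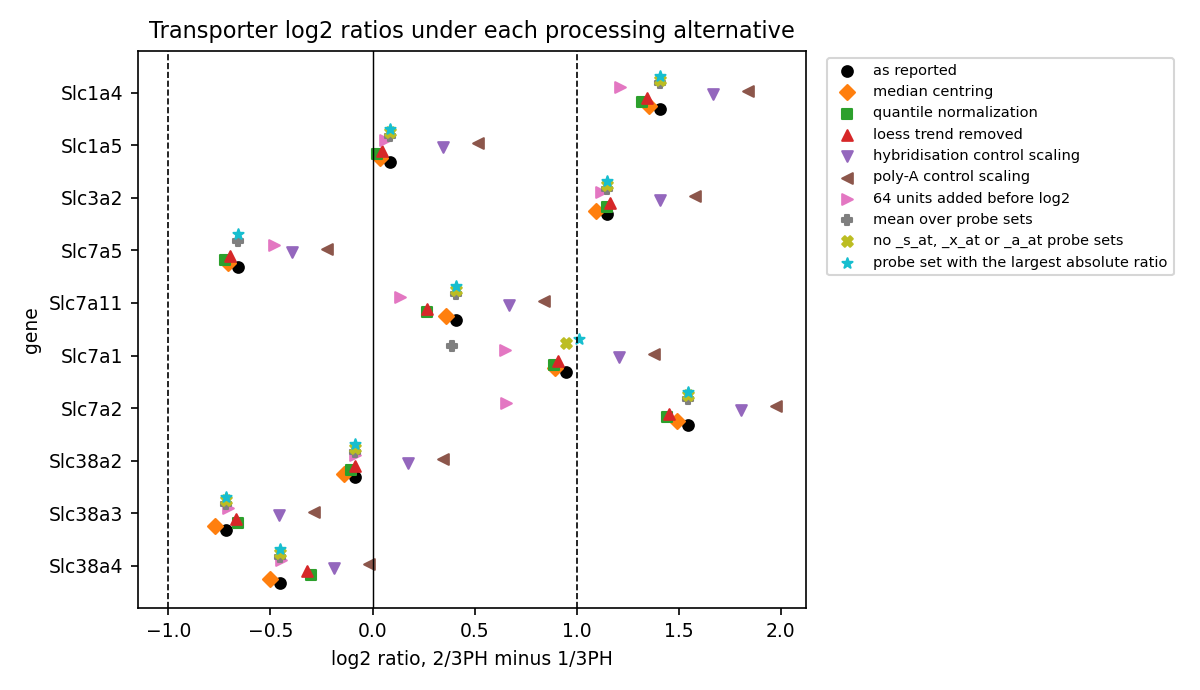
The log2 ratio, 2/3PH minus 1/3PH, of each of the 10 transporters (rows) as reported (black circles) and under 9 processing alternatives (other symbols), with dashed lines at 2-fold. Slc1a4 and Slc3a2 stay past the upper line in all settings, and Slc38a2 is the one transporter that crosses 0; Slc7a2 and Slc7a11 lie under the floor on both arrays and are drawn only for completeness.

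The other amino acid transporters were counted in the same way. Of 63 listed genes, 54 had a probe set and 25 reached the floor. At 2-fold, 1 of the 25 was higher (Slc7a6) and 2 were lower, or 2 and 2 under poly-A scaling. Their median log2 ratio was 0.09, or -0.0018 under quantile normalization, and 13 lay above 0. Slc6a9, the glycine transporter GlyT1, had signals of 262 after 1/3PH and 58.7 after 2/3PH, at least 2.93-fold lower, and its other 2 probe sets were under the floor. Slc6a13, a carrier of taurine and GABA known from periportal hepatocytes, had signals of 1036 and 371, 2.79-fold lower. The 25 therefore lay about the median of all genes, with 4% higher and 8% lower at 2-fold against 6.12% and 3.68%. These shares are 1 and 2 genes, too few to set against that background, which under poly-A scaling was 16.4% and 1.32%.

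Genes of the ATF4 response lay on both sides of 0. At 2-fold, 3 of the 23 that reached the floor were higher and 1 was lower, or 5 and 1 under poly-A scaling. Their median of -0.11 was positive with either spike-in scaling. The 3 and 1 are 13.0% and 4.35% of the list, against 6.12% and 3.68% of all genes, which became 16.4% and 1.32% under poly-A scaling. Mthfd2, the mitochondrial folate enzyme, had signals of 92.3 and 423 (4.58-fold), Phgdh, the first enzyme of serine synthesis, 274 and 901 (3.29-fold), and Psat1, the next enzyme, 519 and 1350 (2.60-fold). Psph, the last enzyme of serine synthesis, had a log2 ratio of 0.32, and Shmt2, a mitochondrial enzyme that takes a one-carbon unit from serine, one of -0.48. Both were looked up after these values were seen. The stress protein gene Nupr1 was lower, with signals of 1743 and 454 (3.84-fold). Atf4 itself, looked up after these values were seen, had signals of 3995 and 3028, a log2 ratio of -0.40 that turned positive under poly-A scaling, and Asns, asparagine synthetase and a much used ATF4 target, had 341 and 382, a log2 ratio of 0.16.

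Genes of the growth kinase complex mTORC1, its regulators and targets, and amino acid sensing were also counted. Of the 30 that reached the floor, 0 were higher and 2 were lower by that much, a share of 6.67% lower against 3.68% of all genes, and 21 of the 30 ratios lay below 0. The median of the 30 was -0.11 and turned positive under both spike-in scalings. Deptor, an inhibitor of the mTOR kinase, had signals of 2564 after 1/3PH and 1035 after 2/3PH, 2.48-fold lower, with its 2 probe sets at -1.31 and -1.24. Sesn1, a sestrin that restrains mTORC1 and a p53 target, had signals of 918 and 365, 2.52-fold lower, by the 1 probe set that reached the floor. Its other probe set stood at -0.19, and the mean over both at -0.76 fell short of 2-fold. Neither gene reached 2-fold under poly-A scaling.

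**Figure D4:**
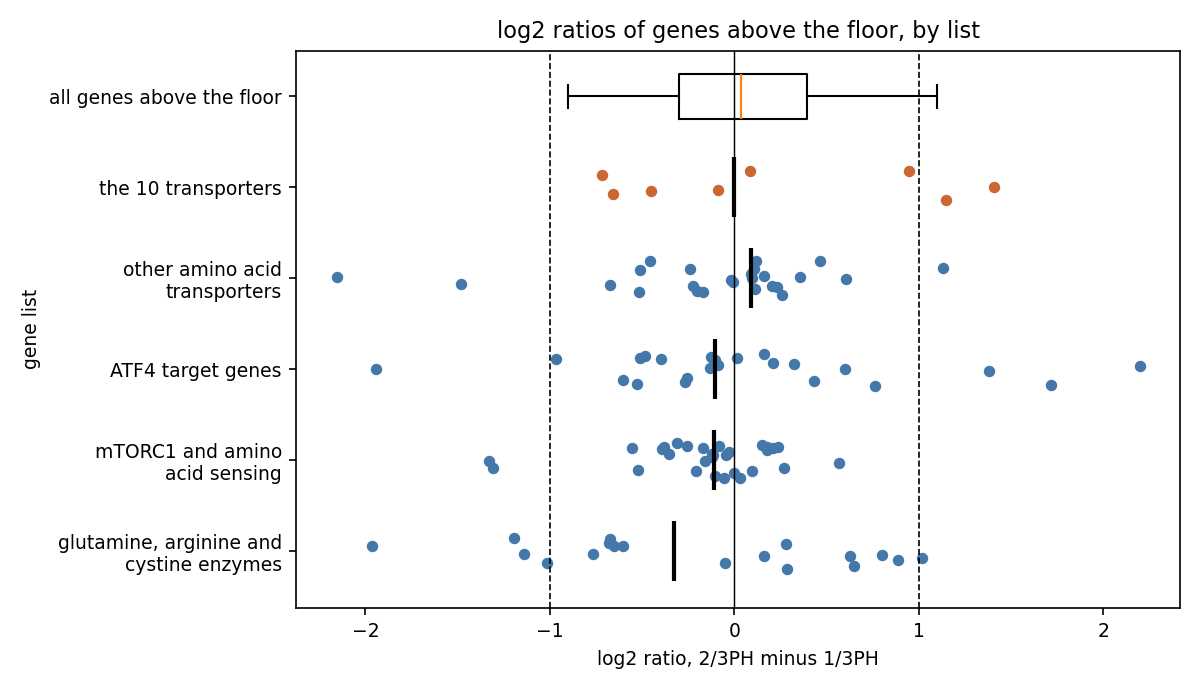
The log2 ratio, 2/3PH minus 1/3PH, of genes above the floor in each list (points, 1 per gene, with the median as a vertical bar; vertical scatter has no meaning), beside all 9514 genes above the floor (box of quartiles, whiskers at the 5 and 95 percentiles). The 8 transporters spread from -0.72 to 1.41, and the medians of the transporter lists lie near 0.

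Whole liver tissue was read, so markers of its cells were checked. All 7 hepatocyte markers reached the floor, with a summed signal of 179539 (1/3PH) and 155842 (2/3PH), and all 7 log2 ratios were below 0, though 5 lay within the probe set SD of 0 and none passed 2-fold. Those 5 were among the brightest genes, at the 99.5 to 99.8 percentiles of signal among genes above the floor, and make up most of the sum. Whether signals that high still follow the amount of RNA was not tested. The others, Tat and Asgr1, were 1.68-fold and 1.70-fold lower. All 5 macrophage markers with a probe set had ratios below 0 (summed signal 8280 and 6261), as did the 4 erythroid and neutrophil markers (27124 and 13511). Of the 4 endothelial markers (10173 and 6370), Pecam1 was level, with signals of 197 and 196, and the others had ratios below 0. Of the 4 stellate cell markers 2 had ratios below 0 (1885 and 1148), and both cholangiocyte markers above the floor had ratios above 0 (898 and 1073 over 3). None of the 3 lymphocyte markers reached the floor, and no marker was at 0. Under poly-A scaling 2 of the 7 hepatocyte, 3 of the 5 macrophage and 3 of the 4 endothelial markers had ratios below 0. Slc38a3 and Slc38a4 lay on the same side as the hepatocyte markers on the deposited scale, and the part of cell composition in the transporter differences was not tested.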

How the data were processed

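Per the labels' protocols, the authors ran MAS 5.0 in GeneSpring 11.0 and deposited log2 signals, here for 31099 probe sets on 2 arrays. The method scales each array by a single factor. Leaving out 2% of the values at each end, the mean signal was 500.3 and 500.2, and the median log2 signal 6.48 (1/3PH) and 6.53 (2/3PH). Pearson's r across probe sets, which are not replicates, was 0.918. The number of arrays limits the precision.

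Gene names came from the platform's annotation, brought up to date by Entrez identifier in RefSeq GRCr8. 20826 had 1 symbol, and 10216 had several or were not listed. Where a gene had several probe sets, the brightest by mean log2 signal was used. Calls were made at 2-fold above the floor, and "at least" puts the floor signal in place of a dimmer value under it. Genes of other lists were named where they passed 2-fold (at most 6 a list), and Slc3a2's light chains were named whatever their values. The members and lists were chosen with earlier results of these data known. Alternatives were 5 scalings, 2 floors, 64 units added before log2, 3 probe set rules and limits of 1.5-fold and 3-fold. On simulated data for 9519 genes above the floor, 97 of 100 genes given a log2 ratio of 1.5 passed 2-fold after median centring. So did 94 of 100 given its negative and 7 of 9321 unchanged genes. The simulated noise was normal with the probe set SD of 0.31, beside a constant array shift that the centring removes. It held no variation between rats or between arrays. These counts therefore check the calculation and are not error rates of the reported calls, which used the deposited values without centring. Calculations used Python 3.11.15, pandas 2.3.3 and statsmodels 0.14.6.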

Additional observations from a re-analysis of the deposited data

How the results depend on the processing

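Of the summary values for the members and the other amino acid transporters, 59 of those recomputed stayed close to the reported value and 15 moved. A count was taken as close within a factor of 1.5 and a median within the probe set SD. For the members, the median log2 ratio was 0.43 under poly-A scaling, and it was also positive, though within the probe set SD, under hybridisation control scaling, without a floor and without suffixed probe sets. The count at least 2-fold higher was 1 with the 75th percentile floor, which left 4 members and removed Slc1a4, and 0 at a 3-fold limit. It was 3, close by that rule, under both spike-in scalings, without a floor and by the probe set with the largest absolute ratio. The count lower was 2 at a 1.5-fold limit. For the other transporters, the median was 0.52 under poly-A scaling, and below 0 under quantile normalization, with no floor and under the higher one. The count higher was 2 under poly-A scaling and at 1.5-fold, 0 with 64 units added, with the 75th percentile floor and at 3-fold, and 6 without a floor. The count lower was 9 when no floor was set. It was 1 under the 75th percentile floor, with the mean over probe sets and at 3-fold. Fewer genes above the floor account for the lower counts under the stricter floor, and for the mean the list had 23 genes. Poly-A scaling adds 0.43 to every log2 ratio, more than the probe set SD, so the medians had to move under it. Another fold limit changes what is counted, and without a floor the list of other transporters had 54 genes. The cause of the remaining moves was not tested. Among the related lists, the ATF4 count lower was 2 under median centring, quantile normalization, loess and the mean over probe sets. The mTORC1 count lower was 0 under poly-A scaling. For the enzymes, the count higher was 0 under median centring and with 64 units added and 2 without a floor, and the count lower 2 under quantile normalization. For the light chains the count higher was 0 with 64 units added. For all solute carriers the count higher was 4 with 64 units added, and the counts were 31 and 33 without a floor. Of the single members' ratios, 12 moved by more than the probe set SD, 10 of them under poly-A scaling. No paired analysis was possible because each group is 1 pooled array.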

Other observations

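Enzymes that use the carried amino acids lay on both sides of 0. At 2-fold, 1 of 18 listed enzymes of glutamine, arginine and cystine metabolism above the floor was higher and 4 were lower, a split that became 3 and 1 under hybridisation control scaling and 5 and 1 under poly-A scaling. The shares over all genes were 6.12% higher and 3.68% lower, 10.8% and 2.06%, and 16.4% and 1.32% in the same order. The 18 enzymes had a median log2 ratio of -0.33, or 0.10 under poly-A scaling. Csad and Cdo1, which make taurine from cysteine, had signals of 7193 and 33162 after 1/3PH and 1845 and 14504 after 2/3PH, 3.90-fold and 2.29-fold lower. Slc6a6, the main taurine transporter, looked up after these values were seen, had signals of 554 and 595, a log2 ratio of 0.10. Otc, of the urea cycle, was 2.21-fold lower and Glul, glutamine synthetase, 2.02-fold lower by its brightest probe set. The 3 probe sets of Glul above the floor had log2 ratios from -1.01 to -0.70, so not all reached 2-fold. Got1, which exchanges aspartate and glutamate nitrogen, was 2.02-fold higher. Under either spike-in scaling Cdo1, Otc and Glul fell short of 2-fold, and under median centring Got1 did.

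Across all 179 solute carrier genes above the floor, a set also chosen after the data were seen, 8 (4.47%) were higher and 12 (6.70%) lower at 2-fold, against 6.12% and 3.68% of all genes, and the median log2 ratio was -0.07. The highest was Slc16a6, a monocarboxylate carrier linked to ketone body export, with signals of 215 after 1/3PH and 923 after 2/3PH, 4.29-fold. Next to Slc1a4, Slc3a2 and Slc7a6, the higher ones included the nucleoside carrier Slc29a2, with signals of 121 and 262. The lowest was the bile acid carrier Slc10a1, followed by the organic anion carrier Slc22a8, with signals of 1692 and 359, then by Slc6a9 and by Slc19a2, a thiamine carrier, with 7440 and 2041. The split of 8 higher and 12 lower became 13 and 10 under hybridisation control scaling and 21 and 7 under poly-A scaling, where the shares of all genes moved to 10.8% and 2.06% and to 16.4% and 1.32%.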
